A study of Arabidopsis thaliana with 3 samples.

Results

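The genes described here are the pseudogenes of the 5 nuclear chromosomes of Arabidopsis thaliana that had a probe set of their own on the array. They were chosen by annotation alone: a probe set had to be assigned to exactly 1 gene, and that gene had to carry a pseudogene biotype in the TAIR10.1 gene table. This gave 989 probe sets for 989 different genes, out of 22746 probe sets tested, of which 923 genes had the biotype pseudogene and 66 the biotype transcribed_pseudogene. The gene table lists 4843 such genes on these chromosomes, so 20.4% of them were measured.

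Pseudogenes are relics of genes and of transposable elements that no longer encode a working protein. In Arabidopsis they crowd into the heterochromatin around each centromere, where DNA methylation and repressive histone marks keep most of the DNA silent, while the chromosome arms hold most protein-coding genes and far fewer relics. A signal from a pseudogene probe set can come from transcription through the relic itself or from a related sequence that the probes also bind. On Affymetrix arrays, the suffix _at marks a probe set designed for 1 transcript, _s_at one whose probes are shared by several similar transcripts, and _x_at one with probes that may also bind unrelated transcripts.

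The study set flp-1/myb88 shoots against Col wild-type shoots. FLP and MYB88 are related MYB transcription factors known for limiting cell division late in the stomatal lineage, flp-1 is an allele of the first, and the labels call the plants double mutants without naming the myb88 allele. There was 1 flp-1/myb88 array and there were 2 Col arrays, numbered 1 and 2, and plants of both genotypes were 10 days old and grown in constant light at 22 °C. Each array was labelled from RNA amplified from 25 ng. The mutant has no replicate, so genotype and the handling of that single array cannot be told apart, and the labels leave unsaid if separate plants gave the 2 Col arrays, so p-values measure only a spread between arrays that may be technical. No probe set was named as FLP or MYB88, so the genotype labels were not checked on those genes.

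All levels below are log2 intensities, and all differences are the mutant array minus the mean of both Col arrays. A gene is called lower or higher where limma, fitted to all 22746 probe sets, gave a Benjamini-Hochberg adjusted p below 0.05. Differences had a median standard error of 0.304, and none smaller than 0.854 was called. In a bulk shoot sample, fewer cells with a transcript and less transcript per cell cannot be told apart.

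The mutant array also differed from both Col arrays in measures that depend on RNA quality and amplification, which cannot be told apart here. For each of 6 pairs of control probe sets at the 3′ and 5′ ends of actin, GAPDH and ubiquitin, the excess of the 3′ level over the 5′ level was largest in the mutant. For the second actin pair this gap was 5.15 in the mutant, against 3.45 and 3.17 in Col. The part of this in the pseudogene results was not tested. Shoot markers were high on every array: RCA, PSAN and LHCB4.1, which serve photosynthesis, lay at 10.95, 11.78 and 10.73 on the mutant array. The Col levels of these genes were 10.66 and 10.47 for RCA, 11.53 and 11.14 for PSAN, and 10.47 and 10.05 for LHCB4.1. Of the root markers, PYK10, a glucosidase abundant in roots, was also high, at 11.40 in the mutant, against 11.66 and 11.61 in Col. EXPA7, a root hair expansin, was near the low end at 4.0, against 4.54 and 3.78 in Col. None of these 5 genes was called.

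Pseudogenes were called lower in the mutant far more often than higher. limma called 230 of the 989 lower (23.3%) and 18 higher (1.82%), against a background of 14.4% lower and 11.9% higher over all 22746 probe sets. The median pseudogene difference was -0.14, and the median over all probe sets was 0.10. Over 12443 probe sets of protein-coding genes, 1833 (14.7%) were called lower and 1483 (11.9%) higher, with a median of 0.09. Counting without a model, 174 pseudogenes lay at least 2-fold below both Col arrays, where 9.67% of all probe sets did, and 7 lay at least 2-fold above both, where 5.13% did. By biotype, 215 of 923 genes annotated as pseudogene (23.3%) and 15 of 66 annotated as transcribed_pseudogene (22.7%) were called lower, with median Col levels of 3.97 and 4.90.

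Most pseudogene probe sets carried little signal on any array. Their median level was 3.89 in the mutant and 4.06 and 3.99 on the Col arrays, where protein-coding genes had medians of 5.88 in the mutant and 5.99 and 6.03 in Col. A level of 6 or more was reached by 73 pseudogenes in the mutant, against 186 and 194 on the Col arrays. At 8 or more there were 18 in the mutant, against 48 and 50 in Col. At 10 or more only 2 remained in the mutant, against 14 and 21 in Col. Protein-coding genes did not thin out in this way: 5981 were at 6 or more in the mutant, against 6200 and 6294 in Col, and 2003 were at 8 or more, against 1759 and 1778.

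The calls were concentrated in the pseudogenes with a clear Col signal. Below a mean Col level of 4, 0 of 486 were called lower by limma, 8 were called higher, and the median difference was 0.15. From 4 to 5, 16 of 185 were called lower (8.65%). From 5 to 6 the count was 64 of 133 (48.1%), from 6 to 7 it was 66 of 90 (73.3%), from 7 to 8 it was 40 of 49 (81.6%), and at 8 or more it was 44 of 46 (95.7%). The median differences in those last 4 bins were -0.89, -1.41, -1.87 and -2.20. At 8 or more the median level was 7.38 in the mutant, against 9.46 and 9.61 in Col.

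Protein-coding genes were also rarely called lower at low levels, with 0.204% under a Col level of 4 and 6.37% from 4 to 5. Levels that low leave little room for a fall. Above them, protein-coding genes showed no such slope. In the same 4 upper bins, 16.0%, 22.4%, 21.3% and 17.8% of them were called lower, and their median differences lay between 0.01 and 0.12. At a Col level of 5 or more, which is an intensity of 32, 214 of 318 pseudogenes were called lower (67.3%) and 4 higher, against a background of 19.4% lower and 12.3% higher among 8664 protein-coding probe sets at that level. The other 16 pseudogenes called lower had a Col level between 4 and 5.

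**Figure D1:**
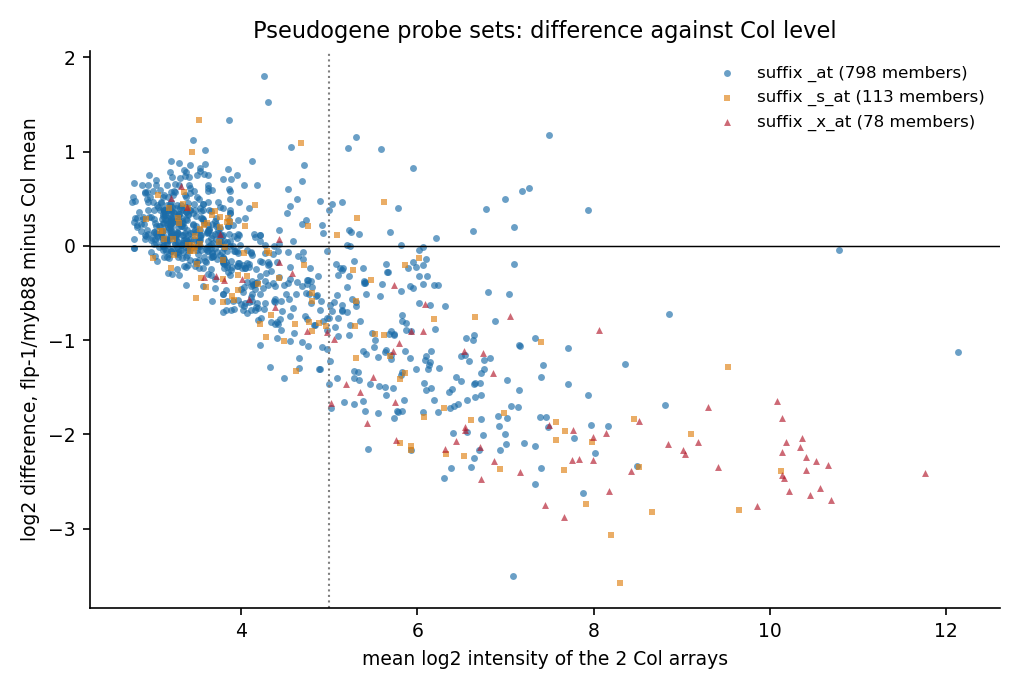
Each point is a pseudogene probe set, with its mean Col level on the x axis and its mutant minus Col difference on the y axis, both in log2 intensity units; the suffix sets the symbol and the line at 0 marks no difference. Points spread around 0 below a Col level of 4 and lie further below it as the level goes up, with _x_at probe sets at the lower right.

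**Figure D2:**
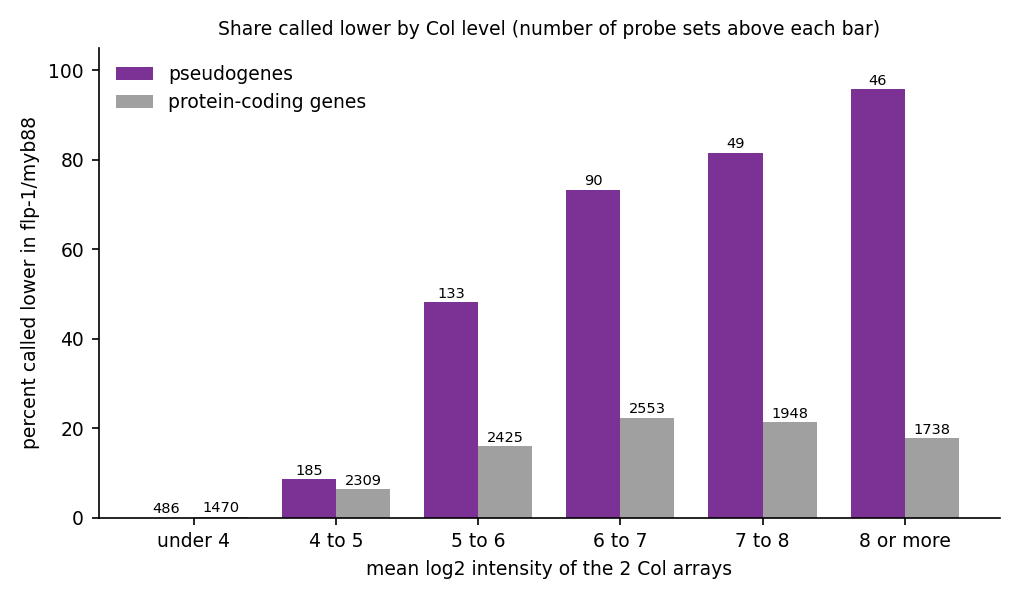
Bars give the percentage of pseudogenes and of protein-coding genes called lower by limma in each bin of mean Col level (log2 intensity). The pseudogene bars climb to 95.7% at 8 or more, while the protein-coding bars stay at or under 22.4%.

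The Col level is one side of the difference, so a probe set with a chance high Col reading would be placed in a high bin and also given a lower difference. The values were therefore also taken with the level from one Col array and the difference from the other. This leaves in any error that both Col arrays share, and genes still enter by a high Col reading. With the level taken from Col 1, 321 pseudogenes were at 5 or more, and their median difference from Col 2 was -1.33. Of these, 194 (60.4%) lay at least 2-fold below Col 2, against 19.7% of protein-coding genes chosen alike. With the arrays exchanged, 320 pseudogenes had a median of -1.18, and 181 (56.6%) lay 2-fold below Col 1, against 15.0% of protein-coding genes. The Col arrays were within 0.5 of each other for 200 of the 318 pseudogenes, and 128 of these were called lower (64.0%), against 14.7% of protein-coding genes. For the other 118 the Col arrays were further apart, and 86 were called lower (72.9%), against 37.2% of protein-coding genes. Over the 318, Col 2 minus Col 1 had a median of 0.21, against 0.04 for protein-coding genes at that level.

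The 8 largest falls span 3 chromosomes. AT3G44470, read by an _s_at probe set, had 4.73 in the mutant, against 7.95 and 8.66 in Col, a difference of -3.57 ± 0.34 (SE; limma adjusted p = 0.000255), which is 11.9-fold. AT3G42090, on an _at probe set, had 3.59 in the mutant, against 6.74 and 7.43 in Col, with a difference of -3.50. In the mutant both were far below either Col array. The mutant reading of AT3G42090 lies near 3.55, the mutant median of pseudogenes with a Col level under 4, so its difference may be only a bound. AT2G04210 had 5.12 in the mutant, against 8.10 and 8.29 in Col (-3.07). AT4G04820 had 4.79 in the mutant, against 7.95 and 7.39 in Col (-2.88). AT2G15150 had 5.84, against 8.40 and 8.92 in Col (-2.82). The next 3, AT2G03080, AT3G32900 and AT3G47330, differed by -2.80, -2.76 and -2.75. Only AT3G42090 of these 8 has an _at probe set, so for the other 7 the signal may be shared with related sequences.

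Rises were few and smaller. AT3G14800, on an arm 8.03 Mb from the centromere, had 6.06 in the mutant, against 4.42 and 4.1 in Col, a difference of 1.80 ± 0.31 (limma adjusted p = 0.0016). AT1G80020, 15.0 Mb out, had 5.85 in the mutant, against 4.52 and 4.11 in Col (1.53). For both, the mutant reading was above both Col arrays by more than the gap between them. AT4G04130 and AT1G43240 each rose by 1.33, AT1G42365 by 1.15 and AT3G43680 by 1.12. AT1G42365 was the one of these 6 with a Col level above 5, at 5.30 on both Col arrays and 6.45 in the mutant.

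The strongest pseudogene signals in Col were not all reduced. AT5G35880, an _at probe set for a gene of 159 bases, was highest, at 11.01 in the mutant, against 12.03 and 12.25 in Col (-1.13 ± 0.30, limma adjusted p = 0.0166). AT3G29210 had 9.35 in the mutant, against 11.61 and 11.91 in Col (-2.41). AT1G35612, also an _at probe set, had 10.75 in the mutant, against 10.83 and 10.76 in Col, and was not called (-0.04 ± 0.30, limma adjusted p = 0.931). The 3 readings of AT1G35612 thus lay within the standard error of each other. The other 3 of the 6 brightest, AT4G04010, AT2G04980 and AT1G32840, are _x_at probe sets with 8.0, 8.34 and 8.0 in the mutant. In Col they had 10.52 and 10.87, 10.54 and 10.78, and 10.37 and 10.77, and their differences were -2.69, -2.32 and -2.57.

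**Figure D3:**
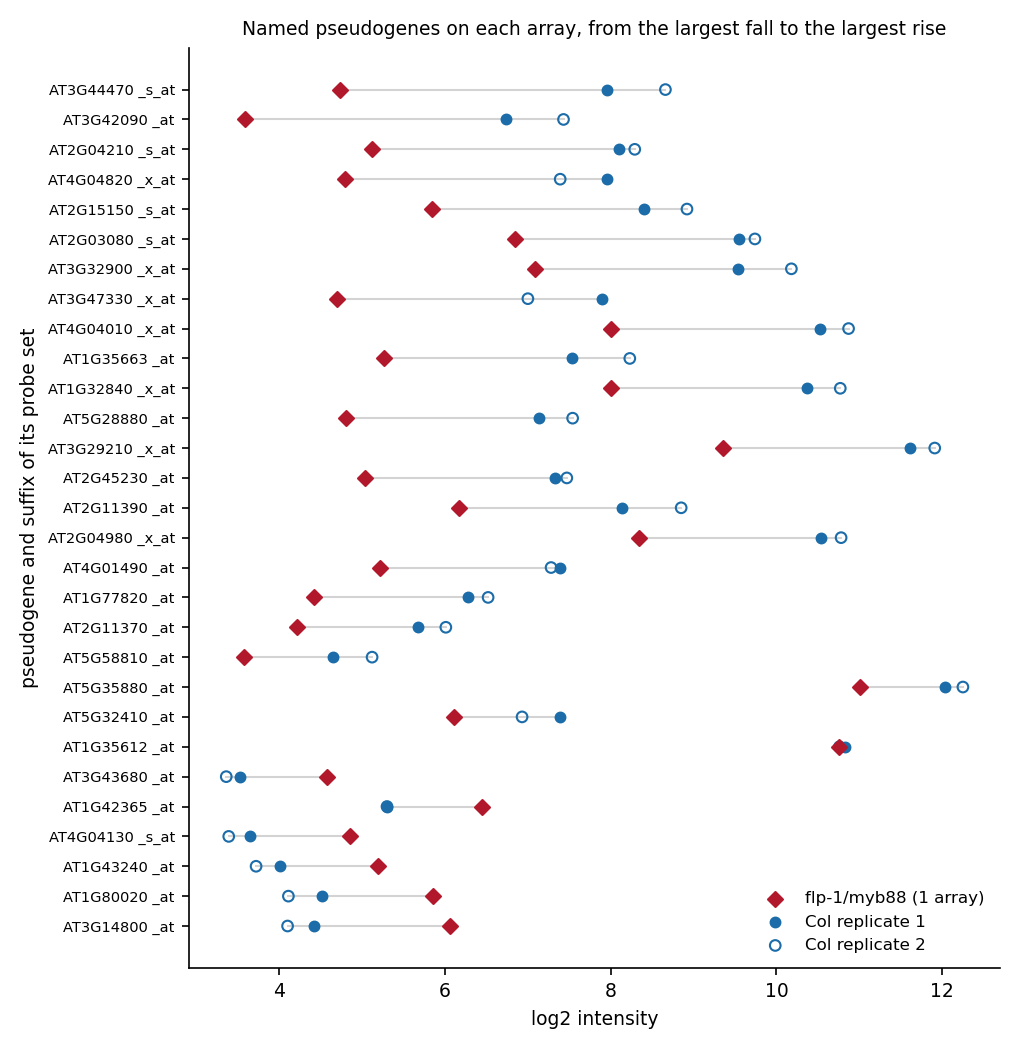
The level of each named pseudogene (log2 intensity) on the flp-1/myb88 array and on both Col arrays. The mutant point lies below both Col points for every gene but the 6 that rose; for AT1G35612 the 3 points nearly coincide, within 10.75 to 10.83.

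Of the pseudogenes, 5 have a gene symbol, and these are named although their values had been seen. CYP51G2, a relic of the cytochrome P450 family of sterol demethylases, had 4.58 in the mutant, against 5.71 and 6.49 in Col (-1.53, limma adjusted p = 0.00815). RSU1 had 4.47 in the mutant, against 6.17 and 6.30 in Col (-1.76, limma adjusted p = 0.00153). Both were called lower, and both lie within 5 Mb of a centromere. The other 3 were not called. CYP71B27, another P450, had 4.79 in the mutant, between its Col readings of 4.64 and 5.57 (-0.31). ATPP2-B3, of the phloem protein family, and CYTOSLEEPER, related to transposases of the hAT family, had Col levels under 5 and differed by -0.32 and 0.60.

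Over all suffixes and levels, the share called lower was above that of protein-coding genes on every chromosome. Called lower were 45 of 193 pseudogenes on chromosome 1 (23.3%), 70 of 298 on chromosome 2 (23.5%), 53 of 207 on chromosome 3 (25.6%), 36 of 174 on chromosome 4 (20.7%) and 26 of 117 on chromosome 5 (22.2%). Protein-coding genes of the same chromosomes were called lower in 13.5% to 15.7% of cases. Median differences were -0.23, -0.15, -0.16, -0.01 and -0.12 on chromosomes 1 to 5. The 18 rises were spread as 7, 5, 3, 3 and 0 over chromosomes 1 to 5.

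Among pseudogenes at a Col level of 5 or more, chromosome 1 had 44 of 66 called lower (66.7%), chromosome 2 had 68 of 94 (72.3%), chromosome 3 had 46 of 67 (68.7%), chromosome 4 had 32 of 50 (64.0%) and chromosome 5 had 24 of 41 (58.5%). Protein-coding genes at that level ranged over chromosomes 1 to 5 only from 17.9% to 20.8%. With _at probe sets alone the pseudogene shares were 59.1%, 63.2%, 59.1%, 50.0% and 57.1%. Under that level, the _at pseudogenes called lower on chromosomes 1 to 5 were 1 of 104, 2 of 182, 4 of 125, 3 of 106 and 2 of 69. The arms were compared over all suffixes at a Col level of 5 or more. On chromosome 4 the counts were 16 of 17 on the arm with the lower gene numbers and 16 of 33 on the other arm. On chromosome 5 they were 7 of 15 on the arm with the lower gene numbers and 17 of 26 on the other. On chromosomes 1, 2 and 3 the counts were closer, with 25 of 37, 31 of 40 and 22 of 34 on the arm with the lower gene numbers and 19 of 29, 37 of 54 and 24 of 33 on the other. These differences between arms and chromosomes were not tested.

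The most reduced _at probe set of each chromosome was designed for 1 transcript, though its binding to related sequences was not examined. On chromosome 1 AT1G35663 had 5.26 in the mutant, against 7.53 and 8.23 in Col (-2.62). On chromosome 2 AT2G45230 had 5.04, against 7.33 and 7.47 in Col (-2.36). Chromosome 3 is represented by AT3G42090, described above. On chromosome 4 AT4G01490 had 5.21, against 7.39 and 7.28 in Col (-2.12), and on chromosome 5 AT5G28880 had 4.80, against 7.13 and 7.54 in Col (-2.53). limma's adjusted p was at most 0.000639 for these 5 genes, and none had a mutant reading near either Col reading. Both follow from picking the lowest difference among probe sets called lower.

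Distance was measured from the start of each gene to the middle of the 2 Mb window with the fewest protein-coding genes on its chromosome, which stands in for the centromere. The lowest windows held 34 to 98 protein-coding genes, where the median window of a chromosome held 493 to 537. Of all annotated pseudogenes and protein-coding genes, pseudogenes make up 86.3% within 1 Mb of that point, 53.7% at 1 to 2 Mb, 28.0% at 2 to 3 Mb, 8.66% at 3 to 5 Mb and 3.52% beyond 5 Mb. The share within 1 Mb follows in part from the choice of the point, since that bin is the window with the fewest protein-coding genes. The array measured 15.0% of the annotated pseudogenes within 1 Mb, and between 17.7% and 30.2% in the other bins. The innermost relics are thus the least sampled.

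Over all 989 pseudogenes, the share called lower did not change steadily with distance. It was 21.8% of 261 within 1 Mb, 23.8% of 286 at 1 to 2 Mb, 21.2% of 217 at 2 to 3 Mb, 38.8% of 98 at 3 to 5 Mb and 16.5% of 127 beyond 5 Mb. The medians were 0.00, -0.14, -0.17, -0.48 and -0.27. Protein-coding genes had shares of 15.5%, 18.2%, 16.7%, 16.0% and 13.8% in the same bins, below the pseudogenes in each. With _at pseudogene probe sets only, the shares were 12.3%, 20.9%, 15.5%, 25.0% and 15.0%, so within 1 Mb and at 2 to 3 Mb they were not above those of protein-coding genes. With the usual centromere positions in place of the midpoints, the pseudogene shares over all suffixes were 18.8%, 24.8%, 26.7%, 34.3% and 14.8%.

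Among pseudogenes with signal, the share was lowest beyond 5 Mb. At a Col level of 5 or more, 50 of 67 were called lower within 1 Mb (74.6%), 63 of 85 at 1 to 2 Mb (74.1%), 44 of 64 at 2 to 3 Mb (68.8%), 37 of 50 at 3 to 5 Mb (74.0%) and 20 of 52 beyond 5 Mb (38.5%). The median differences were -1.64, -1.42, -1.30, -1.54 and -0.72. Within 5 Mb as a whole, 194 of 266 were called lower (72.9%), with median levels of 5.11 in the mutant, against 6.30 and 6.35 in Col. Beyond 5 Mb the medians were 5.44 in the mutant, against 6.06 and 6.19 in Col.

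**Figure D4:**
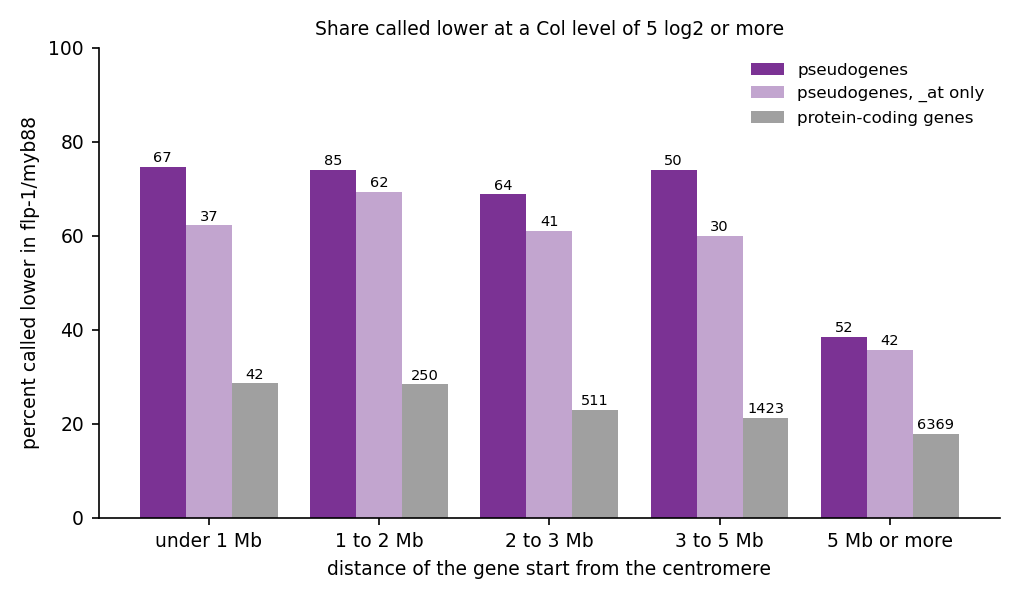
Bars give the percentage called lower by limma among pseudogenes, pseudogenes with _at probe sets and protein-coding genes at a Col level of 5 or more, in bins of distance from the centromere in Mb, with the number of genes above each bar. The pseudogene share is 68.8% to 74.6% in the 4 bins within 5 Mb and 38.5% beyond, and the _at share is 60.0% to 69.4% within and 35.7% beyond.

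The 5 Mb limit was set with results of these data known, and the difference between 72.9% and 38.5% was not tested. Split by level, 60 of 111 were called lower within 5 Mb and 4 of 22 beyond at a Col level of 5 to 6, and 57 of 70 within and 9 of 20 beyond at 6 to 7. At 7 to 8 the counts were 35 of 41 within and 5 of 8 beyond, and at 8 or more, where only 2 genes lay beyond 5 Mb, they were 42 of 44 within and 2 of 2 beyond. With _at probe sets alone, 109 of 170 were called lower within 5 Mb (64.1%) and 15 of 42 beyond (35.7%). Protein-coding genes at this level had 22.5% within 5 Mb and 17.9% beyond. Close to the centromere few protein-coding genes are left to compare: of 42 at this level within 1 Mb, 12 were called lower (28.6%). Biotype moves with place, since 14 of the 52 pseudogenes beyond 5 Mb had the biotype transcribed_pseudogene, with 2 of them called lower, against 16 of the 266 within, with 10 called lower. At this level, 202 of 288 genes with the biotype pseudogene (70.1%, median -1.39) and 12 of 30 with the biotype transcribed_pseudogene (40.0%, median -0.71) were called lower. For the biotype pseudogene alone the counts were 184 of 250 within 5 Mb (73.6%) and 18 of 38 beyond (47.4%).

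**Figure D5:**
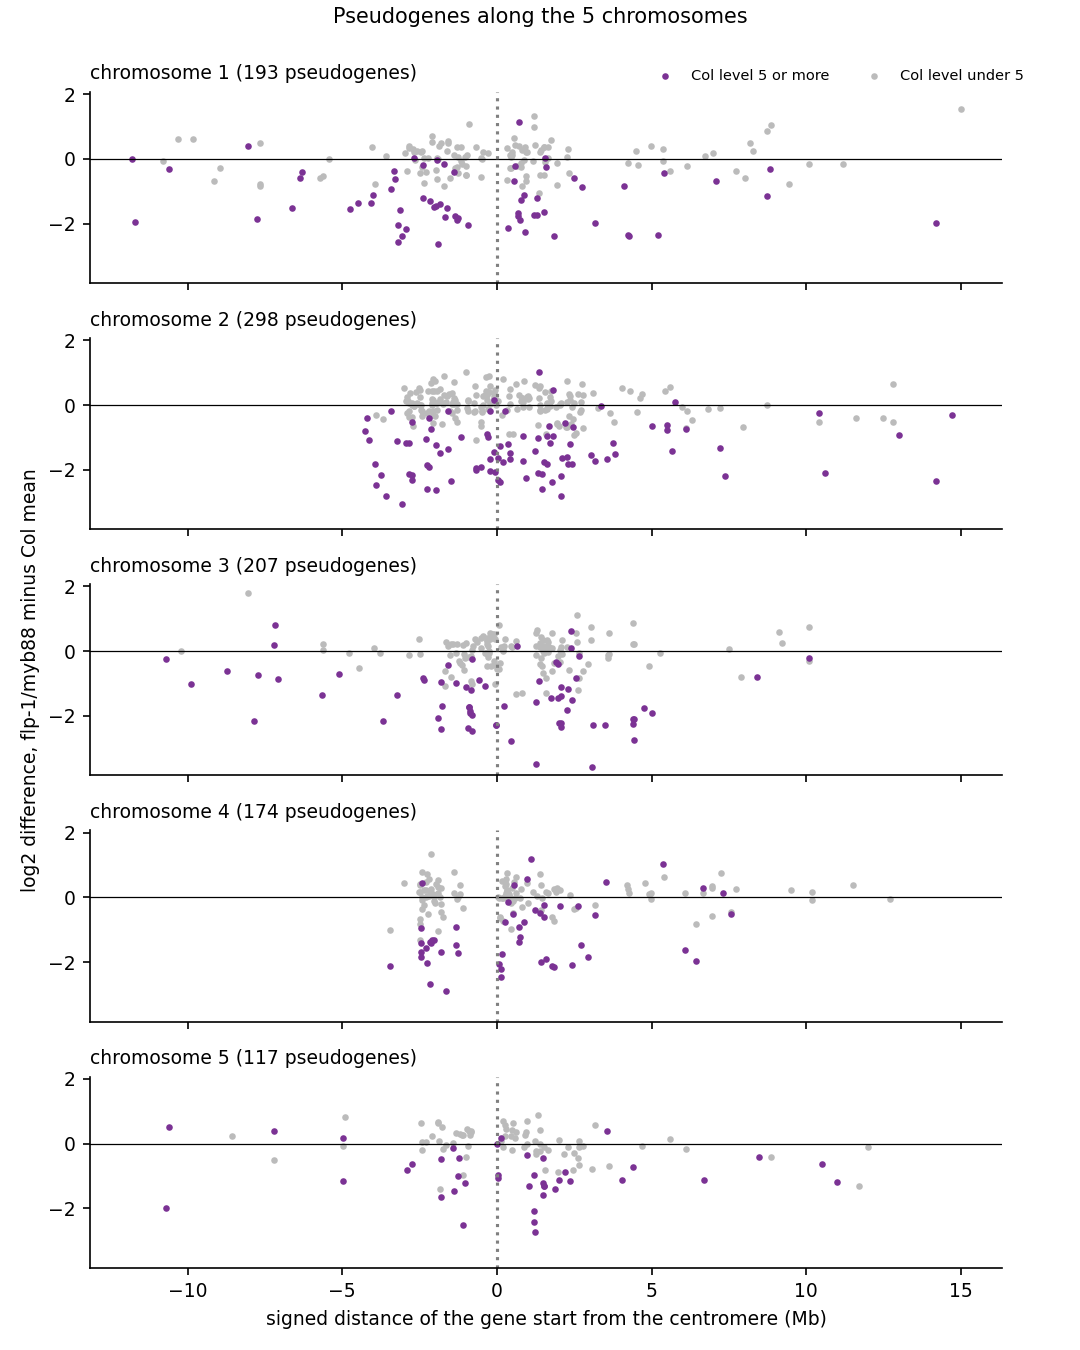
Each panel is a chromosome, with the distance of each pseudogene from the centromere in Mb on the x axis (0 is the centromere). The mutant minus Col difference in log2 is on the y axis. Colours separate pseudogenes at a Col level of 5 or more from those under 5, and calls are not marked. Pseudogenes at a Col level of 5 or more lie along all 5 chromosomes, mostly below 0 on the y axis. Like pseudogenes as a whole, they are densest around the centromere.

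Single genes at both extremes were reduced. AT5G32410 lies 0.0234 Mb from the midpoint on chromosome 5 and had 6.11 in the mutant, against 7.39 and 6.93 in Col (-1.06 ± 0.32, limma adjusted p = 0.0278). This call was lost after median centring (-0.95, limma adjusted p = 0.0521) and after quantile normalization (-1.01, limma adjusted p = 0.0639). AT2G11370, 0.0317 Mb out on chromosome 2, had 4.21 in the mutant, against 5.68 and 6.01 in Col (-1.64). AT2G11390, at 0.0368 Mb, had 6.17 in the mutant, against 8.14 and 8.85 in Col (-2.33). On chromosomes 2, 3 and 5 the midpoint lies 0.9, 0.8 and 0.3 Mb from the usual position of the centromere, so nearness there is rough. At the far end, AT2G45230 lies 14.2 Mb out. AT1G77820, also 14.2 Mb out, had 4.42 in the mutant, against 6.28 and 6.52 in Col (-1.98), and AT5G58810 at 11.7 Mb had 3.57, against 4.65 and 5.12 in Col (-1.31). Some distant relics were thus called lower although their share was lower, and AT1G80020 at 15.0 Mb rose (1.53).

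Pseudogenes called lower also followed each other in the order of measured pseudogenes. Unmeasured and protein-coding genes in between were skipped, and the widest run, of 3 genes on chromosome 1, spanned 664 kb. Counting only measured pseudogenes in chromosome order, there were 19 runs of 3 or more in a row called lower, with 13 of 3, 4 of 4 and 2 of 5, and they held 65 genes. One run of 5 lay on chromosome 3, AT3G29120 to AT3G29420, over 209 kb, and the other on chromosome 5, AT5G34840 to AT5G34920, over 173 kb. The tightest run with only _at probe sets was AT4G03700, AT4G03710, AT4G03720 and AT4G03730, 4 genes within 12.1 kb with differences between -1.84 and -0.95. Genes this close can be parts of 1 element or 1 transcript, so they are not separate observations, and the number of runs was not tested.

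Protein-coding genes directly beside a pseudogene were also counted. Where the gene directly beside a pseudogene called lower was a measured protein-coding gene at a Col level of 5 or more, 17 of 48 were called lower (35.4%). Beside pseudogenes at that level that were not called lower the count was 10 of 34 (29.4%), and beside pseudogenes under that level it was 30 of 90 (33.3%). These 3 shares stand beside 19.4% of all protein-coding probe sets at that level and 22.5% of those within 5 Mb of a centromere, and the differences between them were not tested. Where the neighbour was a pseudogene at a Col level of 5 or more, 30 of 33 pairs with a pseudogene called lower had the neighbour called lower too (90.9%). The count was 3 of 5 beside pseudogenes at that level not called lower (60.0%) and 52 of 76 beside those under it (68.4%). Over all such pairs it was 83 of 112 (74.1%). Adjacent pseudogenes that both qualify enter once from each side and can share a transcript, so pairs are not separate observations. These differences were not tested.

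The share called lower ranged more widely over the probe set suffixes than over chromosomes or distance. Of 78 _x_at probe sets, 60 were called lower and 0 higher (76.9%, median -1.94). Of 113 _s_at probe sets, 34 were called lower (30.1%, median -0.35), and of 798 _at probe sets, 136 (17.0%, median -0.05). Of probe sets that are not pseudogenes, 17 of 48 with _x_at (35.4%), 25.9% of 822 with _s_at and 13.5% with _at were called lower. Protein-coding genes alone had 10 of 32 with _x_at (31.2%), 20 of 53 with _s_at (37.7%) and 14.6% with _at.

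At a Col level of 5 or more, 59 of 63 _x_at (93.7%), 31 of 43 _s_at (72.1%) and 124 of 212 _at (58.5%) pseudogene probe sets were called lower, with medians of -2.08, -1.81 and -1.12. Among protein-coding genes at that level the counts were 9 of 16 for _x_at (56.2%) and 18 of 35 for _s_at (51.4%), and 19.2% of _at probe sets were called lower. A fall in pseudogenes was therefore measured in each suffix class, and for the _at class the share beside it was 19.2%. By gene length at that level, 67.9%, 69.4%, 65.7% and 66.2% were called lower for genes under 500, 500 to 1500, 1500 to 3000 and at least 3000 bases.

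The brightest _x_at probe sets were all called lower, but a high Col reading chose them, which favours a fall. At a Col level of 8 or more there were 29 of them, on 5 chromosomes, all within 5 Mb of a centromere and all called lower, with differences between -2.76 and -0.89. Their levels in the mutant ran from 5.58 through a median of 7.71 to 9.35. On Col 1 the lowest, median and highest were 7.70, 9.90 and 11.61, and on Col 2 they were 7.66, 10.32 and 11.91. Whether these probe sets bind the same transcripts was not tested, so they may not be separate observations. Without the 29, an alternative added after the data were seen, 201 of 960 pseudogenes were called lower. With the level taken over all 3 arrays, 30 of 33 pseudogenes of any suffix at 8 or more were called lower, and 1 lay above both Col arrays.

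The 104 pseudogenes at a Col level of 5 or more that were not called lower had a median Col level of 5.67, against 6.63 for the 214 called. Of these 104, 65 still lay below both Col arrays and 17 above both, 4 of which were called higher. Within 5 Mb of a centromere lay 72 of the 104, against 194 of the 214 called lower. Of all 8664 protein-coding probe sets at that level, called or not, 3569 lay below both Col arrays and 4179 above both. As a group, pseudogenes at that level not called lower were therefore dimmer, and more of them read below both Col arrays than above. A high Col reading chose them, which favours a reading below Col.

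The list of genes that keep heterochromatin silent or counter its silencing was too thinly matched to probe sets to read. Its 38 genes include DNA and histone methyltransferases and the machinery of RNA-directed DNA methylation. The annotation assigned a probe set to 2 of them alone, and limma called 0 of the 2. That annotation gave no gene to 8730 of the 22746 probe sets, so unmatched genes may still be on the array. H1.1, a linker histone, differed by 0.17 (limma adjusted p = 0.726). H1.2, another linker histone, had 9.14 in the mutant, against 8.27 and 8.36 in Col (0.83, limma adjusted p = 0.0562). Of 7 genes of RNA decay, 2 were matched to a probe set and 0 called. UPF3, which acts in the decay of transcripts with early stop codons, differed by 0.74 (limma adjusted p = 0.0846), and UPF2, of the same pathway, by -0.26. All other genes of both lists were not analysed here.

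Another gene class was also often lower. Of 69 probe sets of protein-coding genes encoded in the plastid, 42 were called lower by limma (60.9%) and 0 higher, with a median difference of -0.94 and median levels of 10.56 in the mutant, against 11.40 and 11.72 in Col. Whether the falls of plastid genes and of pseudogenes are related was not tested.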

How the data were processed

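The authors deposited one table of probe set intensity values, produced with RMA per the submitters' processing notes; the sources used here do not give its software or version. They are on a linear scale, judged from the numbers, so log2 was taken of the deposited values without a pseudocount. Median intensities were 64.2 in the mutant, against 68.7 and 69.7 in Col. Having only 3 arrays limits the precision.

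Of 22810 probe sets, 64 controls were kept out. The platform annotation gave 1 gene to 13513 probe sets, several to 503 and none to 8730, and 13436 matched the TAIR10.1 gene table by gene ID. The table was used for names, biotypes, order and distances, and no coordinates are given because the values name no build. Kinds of pseudogene were not analysed here. 0 sample columns were left unused.

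The fit used limma 3.58.1 in R 4.3.3 (lmFit and eBayes, no trend, not robust, two-sided, Benjamini-Hochberg over all tested probe sets). With 1 mutant array, the spread was estimated between the 2 Col arrays (residual df 1, prior df 12.1, prior SD 0.253) and taken to hold for the mutant too. Calls were counted by chromosome, distance, Col level and suffix, with no test between such groups. Windows for the centromere were 2 Mb wide and moved in steps of 0.1 Mb.

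The pseudogenes and all lists were chosen with earlier results of these data known. Named pseudogenes are the 8 lowest and 6 highest differences among those called and at least 2-fold outside both Col arrays, the 6 highest Col levels, the lowest called _at probe set of each chromosome, and the 3 nearest to and 3 farthest from the centromere among _at probe sets called lower. Marker lists gave 3 of 8 shoot, 2 of 6 root and 0 of 4 pollen genes with a probe set that the annotation assigned to that gene alone. Alternatives covered normalization, the eBayes settings, a filter on low levels, suffix, centromere position, the array that sets the level, and each Col array left out.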

Additional observations from a re-analysis of the deposited data

Results flagged for a closer look

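Control probe sets outside the comparison carried a signal that differed between arrays. The bacterial poly-A control probe sets, 27 in all, had a median level of 3.47 in the mutant, against 3.10 and 3.04 in Col, and the mutant value was above both Col values for 27 of 27. The 5S rRNA control probe set read 10.62 in the mutant, against 11.76 and 11.60 in Col, a difference of -1.06. The 25S rRNA control read 8.88 in the mutant, against 9.10 and 9.68 in Col. These controls did not enter the fit, and their part in the pseudogene results was not tested.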

How the results depend on the processing

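The count of 230 pseudogenes called lower became 198 after median centring, 173 after quantile normalization, 231 with cyclic loess, 242 with an intensity trend and 222 with robust eBayes, and at a Col level of 5 or more the share lay between 51.6% and 67.3% over the 3 normalizations, against 14.4% to 21.2% of protein-coding genes. Over the 3 normalizations the median of all probe sets ran between 0.01 and 0.21, and the pseudogene median stayed 0.21 to 0.24 below it, at -0.03 with median centring and -0.20 with cyclic loess. A filter at the median level left 130 pseudogenes, with 111 called lower, 2 higher, 95 at least 2-fold below both Col arrays, 0 at least 2-fold above and a median of -1.84; it keeps the brighter genes by construction. The _at probe sets alone gave 136 called lower, 97 at least 2-fold below both and a median of -0.05, with 12.3% called lower within 1 Mb of the centromere and 25.0% at 3 to 5 Mb. The 780 pseudogenes with Col arrays within 0.5 of each other, an alternative chosen after seeing the data, gave 140 called lower and a median of -0.01. An intensity trend raised the count called higher to 60, against 18 without it, and quantile normalization raised the count at least 2-fold above both to 12, against 7; these causes were not tested. On chromosome 5, quantile normalization left 16 called lower, against 26, and median centring left 11 at least 2-fold below both, against 17. With the level taken over all 3 arrays, 0.198% of pseudogenes under 4 and 18.9% from 4 to 5 were called lower, because genes low in the mutant move down a bin. Leaving out each Col array in turn leaves no residual degrees of freedom and so no calls; the count at least 2-fold above was then 10 and 14 and the median difference -0.17 and -0.10. Of the values for named genes under alternatives, 210 held, 10 moved by more than their standard error when a Col array was left out, and 2, both of AT5G32410, lost the call. No paired analysis was possible because there is 1 mutant array and its label carries no replicate number.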
